A study of Blastobotrys raffinosifermentans with 8 samples.

Results

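The first step after a shift to fresh medium was followed in the non-conventional yeast *Blastobotrys raffinosifermentans*, by setting the arrays harvested at 30 min against those harvested at 15 min. These are 4 of the 8 one-colour arrays of the study, 1 per arm and harvest time, and the step was taken within each arm. All 8 arrays hold total RNA of the wild-type strain LS3. Cells had grown overnight in YMM medium with glucose and NaNO3, were pelleted and then moved to fresh YMM with NaNO3, in shaking flasks at 30 °C. In the glucose arm the fresh medium held 1% glucose, and in the gallic acid arm it held 1% glucose plus 0.5% gallic acid. The remaining 4 arrays, harvested at 2 h and 5 h, entered the fits and show how long a step lasted. No harvest time has a second array in its arm and nothing in the labels names separate cultures, and a p-value here speaks for the spread among these arrays alone, which may be technical. That spread also holds any change over time in how the arms differ, so a passing difference between the arms counts as error. No array of the cells before the shift was used here, so the step describes the change from 15 min to 30 min and not the change that the shift itself made.

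A yeast moved to fresh medium meets a sudden change of nutrients, cell density and handling. In the well-studied yeast *Saccharomyces cerevisiae*, such changes are followed within minutes by broad and often passing waves of transcription, in which genes for ribosomes, stress defence and carbon metabolism take large parts. Gallic acid is a building block of tannins. *B. raffinosifermentans* can degrade it through a gallic acid decarboxylase (AGDC1) and a ring-opening catechol-1,2-dioxygenase (ACDO1). The array was designed on locus tags, up to 10 probes per tag, and the files do not pair tags with gene names. Functions are therefore given only for the tags to which the study gives one, and other tags appear by tag, as examples.

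Of the 6159 locus tags on the array, 6111 were bright enough to be tested. Between 56.7% and 81.9% of the yeast spots of an array were well above background. This share fell from 78.6% at 15 min to 72.5% at 30 min in glucose and rose from 58.9% to 67.7% with gallic acid, so detection moved in opposite directions in the arms. The processed signals of 10 spike-in transcripts, added to the labelling in known amounts, were also compared. On the log2 scale they moved by between -0.13 and 0.24 in glucose and by between -0.30 and 0.43 with gallic acid. Both gallic acid extremes came from dim spike-ins, with mean log2 signals of 1.77 and 3.01. Those with a mean log2 signal of 5.92 or more moved by 0.01 to 0.24 in glucose and by -0.04 to 0.11 with gallic acid. Over the same interval the 75th percentile of the yeast signals moved by -0.29 in glucose and by 0.21 with gallic acid. All values below are relative to the array's overall signal, and a change in the total amount of RNA per cell cannot be seen in them. All 8 arrays lay on 1 slide, where the row follows the arm and the column follows the harvest time. The step can therefore not be told apart from the slide column, nor the arm from the slide row.

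Many transcripts stepped in both arms. In a limma fit with arm and harvest time as factors, 467 tags rose (7.64% of those tested) and 413 fell (6.76%) from 15 min to 30 min, at a Benjamini-Hochberg adjusted p below 0.05. All 880 moved in the same direction in both arms, which the call itself largely fixes, since a tag whose arms go opposite ways has a small mean step and a large error. The median step on the log2 scale was 0.61 among the tags that rose and -0.57 among those that fell. Of the tags that rose, 102 did so by at least 1 on that scale, a doubling, and 18 by at least 2, while 72 fell by at least 1 and 11 by at least 2. Across the 6111 tags the steps of both arms correlated with r = 0.72, a description in which the points share the 4 arrays and the slide columns, and tags are not independent replicates. The error in this fit came from all 8 arrays, with 3 residual degrees of freedom. On the 4 arrays of 15 min and 30 min alone, which leave 1, no tag passed (0 rose and 0 fell, limma, 1378 at an unadjusted p below 0.05), yet all 880 kept their direction, as the same arrays gave it. Fewer tags passed without single arrays. The numbers that rose and fell were 293 and 341 without the glucose array of 15 min, 321 and 244 without that of 30 min, 185 and 194 without the gallic acid array of 15 min, and 188 and 164 without that of 30 min. They were 252 and 205 without the 2 h arrays and 208 and 195 without the 5 h arrays.

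**Figure D1:**
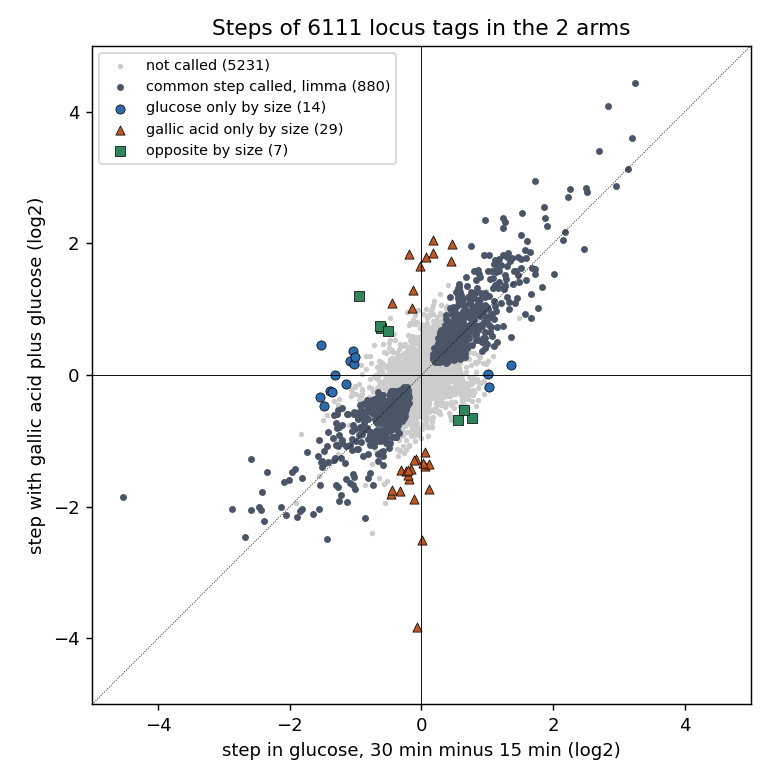
Each point is 1 of the 6111 tags, with its step from 15 min to 30 min in glucose on the x axis and with gallic acid plus glucose on the y axis, both on the log2 scale, and the dotted line marks equal steps. The 880 tags called for the common step lie along that line in the upper right and lower left quadrants. The 14 glucose-only, 29 gallic-acid-only and 7 opposite tags lie near an axis or in the other quadrants.

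The largest rise was that of ARAD1A02926g, on chromosome A by its tag. Its level on the log2 scale went from 9.31 to 12.55 in glucose and from 8.35 to 12.78 with gallic acid. Both 30 min values were above all 6 others of the tag, and by 2 h the level was 9.69 in glucose and 11.46 with gallic acid. The common step was 3.84 on the log2 scale (SE 0.67, n = 2 pairs of arrays, 14.3-fold, limma adjusted p = 0.027), and each of its 10 probes stepped up in each arm. Next came ARAD1C36278g on chromosome C, with 7.08 and 9.92 in glucose and 6.31 and 10.39 with gallic acid at 15 min and 30 min. Here too both 30 min levels exceeded the other 6, which lay between 6.31 and 8.42. Its step was 3.46 (SE 0.40, n = 2 pairs, 11.0-fold, limma adjusted p = 0.00974). All its 10 probes stepped up in both arms, by up to 3.54 in glucose and up to 5.32 with gallic acid. The call of ARAD1A02926g was lost without the glucose array of 30 min (adjusted p = 0.104), the gallic acid arrays of 15 min (0.0596) or 30 min (0.0925), or the 5 h arrays (0.0635), and that of ARAD1C36278g without the gallic acid array of 30 min (0.0561).

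The largest fall was that of ARAD1B14454g on chromosome B, from 12.51 to 7.98 in glucose and from 11.91 to 10.06 with gallic acid. The fall was on its way in both arms, since the levels at 2 h were 6.99 in glucose and 7.40 with gallic acid, and at 5 h 7.04 and 7.06. The common step was -3.19 on the log2 scale (SE 0.63, n = 2 pairs of arrays, 9.13-fold lower, limma adjusted p = 0.035). The step was -4.53 in glucose and -1.85 with gallic acid, a difference of 2.68 (SE 0.42) that did not pass the test (limma adjusted p = 0.216). ARAD1B09856g, also on chromosome B, behaved otherwise. Its level went from 8.99 to 6.31 in glucose and from 8.48 to 6.03 with gallic acid, and was back at 8.85 and 8.94 at 2 h. The step of -2.57 (SE 0.16, n = 2 pairs, 5.93-fold lower, limma adjusted p = 0.00304) was a dip present at 30 min in both arms and at no other harvest time measured. Well above background on the gallic acid array of 30 min were 20% of its probes, and the depth of the dip depends on how background was treated. It was -4.17 at offset 0. With the processed signal, which changes both background and scaling, it was -4.98. The call of ARAD1B14454g was lost without the glucose array of 15 min (adjusted p = 0.107), the gallic acid array of 15 min (0.0568), the 2 h arrays (0.0792) or the 5 h arrays (0.0839).

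**Figure D2:**
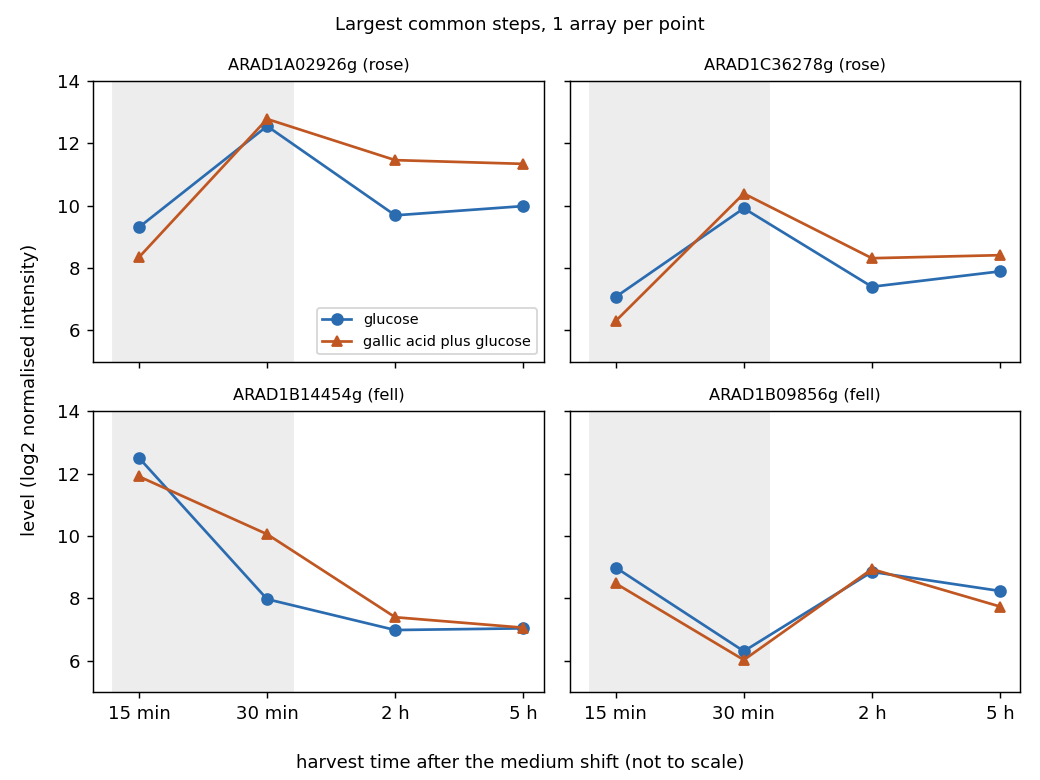
Levels of the 2 largest rises and the 2 largest falls among tags with at least 4 probes, as log2 normalised intensity on the y axis against harvest time on the x axis (not to scale), with 1 array per point and the 15 min to 30 min step shaded. ARAD1A02926g and ARAD1C36278g peaked at 30 min in both arms, ARAD1B14454g went on falling to 2 h, and ARAD1B09856g dipped at 30 min.

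Rises and falls also differed in how long they lasted, described here with no test because arrays that chose the tags enter both measures. Those of 30 min enter the turn by 2 h, and those of 15 min enter the comparison at 5 h. Of the 102 tags that rose by at least 1, 92 (90.2%) had turned downward again by 2 h in both arms. Of the 72 that fell by at least 1, 42 (58.3%) had turned upward. A turn of any size counted. Among all called tags, 342 of the 467 rises (73.2%) and 192 of the 413 falls (46.5%) had turned back. The share over all tags tested was not computed. At 5 h, 47 of the 102 lay within 0.5 of their own 15 min level in both arms and 24 were still at least 0.5 above it. Of the 72, 12 were within 0.5 of it and 46 were still at least 0.5 below it in both arms. The median level of the large rises on the log2 scale was 6.82 and 8.47 for 15 min and 30 min, then 7.25 after 2 h and 7.45 after 5 h. That of the large falls was 8.44, 7.00, 7.27 and 7.37 at the same times. Most of the large rises were thus lower at 2 h than at 30 min in both arms, and most of the large falls were still low at 5 h. A tag chosen for a high or low 30 min value tends to turn back by that choice alone, so these shares have no reference to be read against. The median over all tags stayed between 6.42 and 6.43, which the quantile normalisation over the arrays largely fixes.

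The size of the step was then set side by side between the arms. Among the tags that rose, 64.5% stepped further with gallic acid than in glucose, and among those that fell 57.6%, compared with 54.8% of all tags tested. Among the large rises the share was 74.5%, and among the large falls 41.7%. A limma fit that gave each arm its own step, with 2 residual degrees of freedom, called 178 rises (2.91%) and 148 falls (2.42%) in glucose, and 315 rises (5.15%) and 337 falls (5.51%) with gallic acid. These counts rest on the later arrays for their error. No tag passed in glucose without the 2 h or the 5 h arrays (0 in each case, limma, 1312 and 1212 at an unadjusted p below 0.05). With gallic acid 154 passed without the 2 h arrays and 0 without the 5 h arrays (1457 at an unadjusted p below 0.05). With the processed signal, 413 rises and 276 falls were called with gallic acid. The same fit tested the difference of the steps directly. No tag passed (0 of 6111, 0%), the lowest limma adjusted p was 0.214, and 741 tags had an unadjusted p below 0.05, so for no single tag was the step shown to differ between the arms. The error of this test is how the ratio between the arms differed among the early arrays on average, 2 h and 5 h. A response that varied later thus counted as error, and the lack of calls does not show equal steps.

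Which tags stepped in 1 arm only was therefore counted by size, with no test. A tag counted when its step was at least 1 in size in 1 arm and under 0.5 in the other, the steps differed by at least 1, at least 80% of the probes agreed in sign on the step and on the difference, and at least 50% of the probes were well above background on 1 of the arm's arrays. Detection in the other arm was not required, so a tag near background there could stay under 0.5 for that reason. With the rule on probe signs applied, most steps of at least 1 were shared. Of 211 tags that moved by at least 1 in glucose, 182 (86.3%) moved by at least 0.5 the same way with gallic acid, and of 278 that did so with gallic acid 222 (79.9%) followed in glucose. At least 1 in size in both arms, the same way, were 80 tags upward (1.31% of tags tested) and 57 downward (0.933%).

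With gallic acid only, 10 tags stepped up (0.164%) and 19 stepped down (0.311%). The rule makes the ratio between the arms fall by at least 1 over this interval in the 19, so their ratios are a description of the same 4 values. At 15 min all 19 were higher with gallic acid than in glucose, by a median of 1.22 on the log2 scale, and at 30 min 6 of the 19 were, with a median ratio of -0.08. The median level with gallic acid went from 8.64 to 6.65, while in glucose it was 7.06 and 6.83. On the later arrays, which the rule did not use, 18 of the 19 lay within 0.5 of the glucose level at 2 h and 17 at 5 h, against 96.5% and 98.2% of all tags. These tags were thus near the glucose level at 2 h and 5 h no more often than all tags, so the later arrays do not set them apart. Their high level on the gallic acid array of 15 min follows in part from the rule. No second array of 15 min with gallic acid exists to repeat that level. For the 10 tags that stepped up the rule makes the ratio rise, from a median of -0.62 at 15 min to 0.78 at 30 min. At 2 h, 7 of the 10 were higher with gallic acid, with a median ratio of 0.62, compared with 2702 of all 6111 tags, and 3 of the 10 lay within 0.5 of the glucose level. The split depended on the processing. It was 14 up and 17 down with median scaling, and 125 up and 100 down with the processed signal, where background and scaling both change.

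ARAD1D03366g showed the widest difference between the arms. Its level on the log2 scale was 5.98 and 5.91 in glucose at 15 min and 30 min, and 9.88 and 6.05 with gallic acid. The single high value was the gallic acid array of 15 min, since the later levels were between 5.88 and 6.26 in both arms. In glucose 11.1% of its 9 probes were well above background on each array, so a step there could have gone unseen. With gallic acid 100% were at 15 min and 33.3% at 30 min. The step with gallic acid thus ended near background, and its size depends on the background treatment. That step was -3.83 (SE 0.96, limma adjusted p = 0.087), with all 9 probes stepping down, and did not pass. It was -5.79 at offset 0. The difference of the steps was -3.77 (limma adjusted p = 0.407), and it was -4.67 in the authors' log2 values, -5.46 at offset 0 and -6.39 with the processed signal. The preceding tag on chromosome D was also in the set, with steps of 0.11 in glucose and -1.72 with gallic acid. ARAD1B13508g measured 6.82 and 6.83 in glucose and 10.16 and 7.65 with gallic acid. It again stood highest on the gallic acid array of 15 min, and all 5 of its probes stepped down there, by 2.01 to 2.79 in size. Its difference of the steps was -2.52 (SE 1.18, limma adjusted p = 0.515).

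Among the upward steps, ARAD1B14828g measured 6.35 and 6.17 in glucose and 6.11 and 7.96 with gallic acid. It was highest at 30 min with gallic acid, and at 2 h stood at 6.81 in glucose and 7.37 with gallic acid. Its step was 1.85 with gallic acid (SE 0.27, limma adjusted p = 0.030) and -0.18 in glucose, a difference of 2.03 (limma adjusted p = 0.255). The gallic acid step started near background, with 16.7% of its 6 probes well above it at 15 min, and the size of the difference was 3.92 at offset 0 and 4.86 with the processed signal. ARAD1C37752g measured 10.42 and 10.60 in glucose and 9.23 and 11.29 with gallic acid, so that it passed from the lower arm to the higher. All 10 probes stepped up with gallic acid, by 1.66 to 2.15, and between -0.08 and 0.26 in glucose. The difference of the steps was 1.88 (SE 0.66, limma adjusted p = 0.396).

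In glucose only, 3 tags stepped up (0.0491%) and 11 stepped down (0.18%), and 11 of the 14 lay on chromosome D, which holds 2168 of the 6111 tags tested. In the 11 that stepped down the rule makes the ratio of gallic acid over glucose rise, here from a median of -0.55 at 15 min to 0.73 at 30 min. At 2 h 8 of the 11 were higher with gallic acid and at 5 h 4 were, compared with 2702 and 3072 of all 6111 tags. The median levels were 9.04 and 8.00 in glucose and 8.65 and 8.42 with gallic acid, and by 5 h both arms were lower, at 7.89 and 7.49. ARAD1D25146g stood at 10.04 and 8.51 in glucose and at 9.52 and 9.97 with gallic acid, and at 2 h at 7.36 and 7.95. All 10 of its probes stepped down in glucose, by 0.94 to 1.74 in size, and all 10 stepped up with gallic acid, by 0.28 to 0.53. The difference of the steps was 1.98 (SE 0.65, limma adjusted p = 0.369). The tag before it was in the set as well, with steps of -1.03 and 0.17. ARAD1D10648g measured 9.11 and 8.07 in glucose and 8.74 and 9.11 with gallic acid, and the difference of its steps was 1.40 (SE 0.58, limma adjusted p = 0.461). With offset 0 the set held 23 tags upward and 35 downward, with the processed signal 38 and 61, and with median scaling 1 and 16.

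The upward steps in glucose only were few and less secure. ARAD1C20592g went from 5.87 to 7.24 in glucose and from 5.84 to 5.99 with gallic acid. None of its 10 probes (0%) was well above background at 15 min with gallic acid and 20% were at 30 min, so its gallic acid step has only a bound and no fold is given for it. In glucose 20% of the probes were well above background at 15 min, so that step too started near background. All 10 probes stepped up there, by 0.79 to 2.11, and the tag's glucose step of 1.37 was 3.59 at offset 0. The difference of the steps was -1.22 (SE 0.25, limma adjusted p = 0.267), and -3.58 with the processed signal, where the gallic acid step was 1.07 and no longer small. ARAD1D23342g measured 7.68 and 8.71 in glucose and 8.09 and 7.91 with gallic acid. Its 5 probes disagreed with its median level, since 4 of them stepped up with gallic acid while the tag's level went down by 0.18. Its difference of -1.21 (SE 0.19, limma adjusted p = 0.216) was -0.61 with the mean over probes and -0.17 with the brightest probe.

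**Figure D3:**
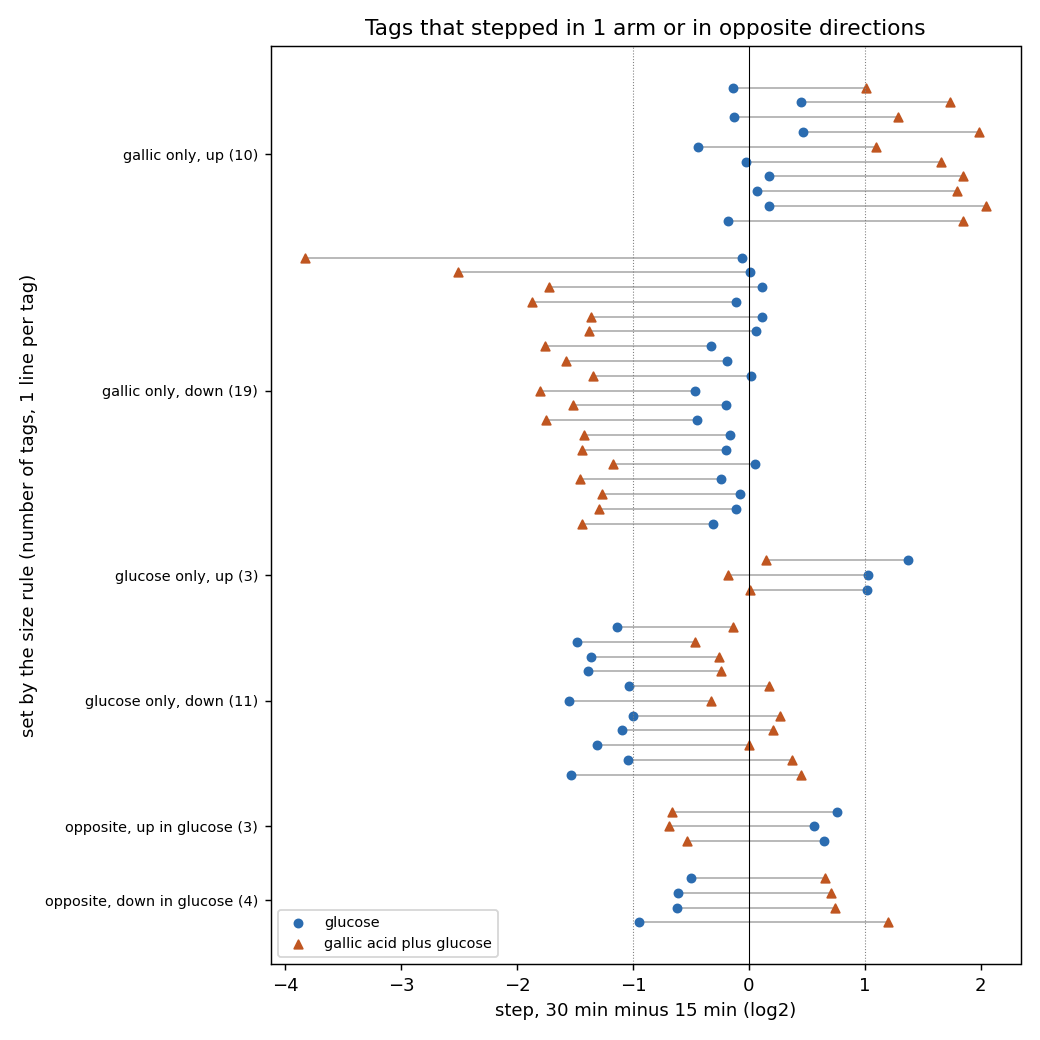
Steps from 15 min to 30 min on the log2 scale (x axis) of the tags that met the size rules, 1 line per tag, with circles for glucose and triangles for gallic acid plus glucose, grouped by set on the y axis with the number of tags, and dotted lines at -1 and 1. The 19 gallic-acid-only tags that stepped down reach from -1.17 to -3.83, while in glucose they lie between -0.46 and 0.11.

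**Figure D4:**
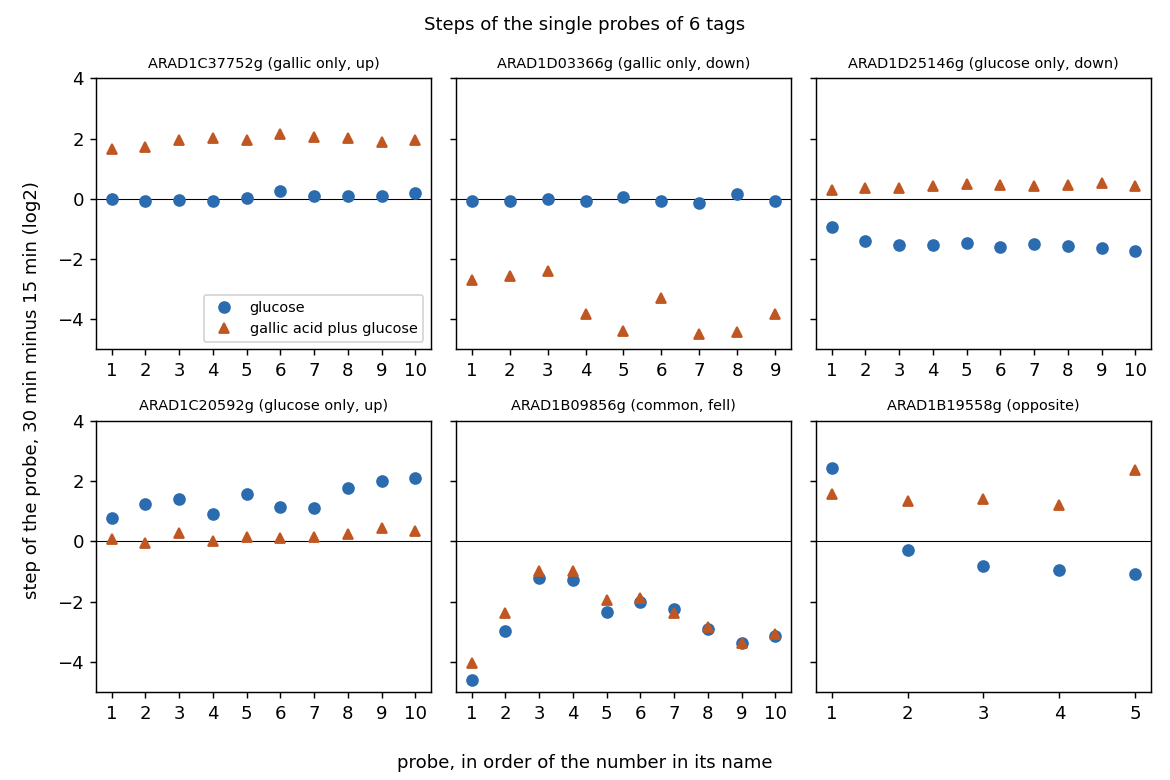
Steps of the single probes (y axis, log2) of 6 named tags, in the order of the number in the probe's name (x axis), with circles for glucose and triangles for gallic acid plus glucose. The arms separate at every probe of ARAD1C37752g, ARAD1D03366g, ARAD1D25146g and ARAD1C20592g and lie close together in ARAD1B09856g. The first probe of ARAD1B19558g stepped up in glucose while its other 4 stepped down.

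Steps of at least 0.5 in opposite directions were seen for 3 tags that were up in glucose and down with gallic acid (0.0491%) and 4 that were the reverse (0.0655%). ARAD1C33990g measured 8.35 and 9.11 in glucose and 9.06 and 8.40 with gallic acid, and ARAD1A15950g 8.97 and 9.53 in glucose and 10.15 and 9.47 with gallic acid. Both began higher with gallic acid at 15 min, and by 5 h the first stood at 9.05 and 8.96 and the second at 9.90 and 9.40. In the other direction, ARAD1B11440g measured 9.35 and 8.73 in glucose and 8.92 and 9.66 with gallic acid. The arms then met, at 8.64 in both at 2 h and at 12.48 and 12.51 at 5 h. ARAD1B19558g measured 7.74 and 6.79 in glucose and 8.26 and 9.45 with gallic acid, but 1 of its 5 probes, the brightest, stepped up by 2.43 in glucose. The set held 2 tags up and 10 down in glucose with median scaling.

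The tags lowest in p for the difference of the steps were not those widest in size. ARAD1A17336g measured 8.37 and 8.04 in glucose and 9.06 and 7.30 with gallic acid. The arms differed by 0.69 at 15 min and by -0.73 at 30 min, and at 2 h stood at 8.41 and 8.37. The difference of its steps was -1.43 (SE 0.10, limma adjusted p = 0.214, the lowest reached). ARAD1C29832g measured 8.77 and 9.52 in glucose and 8.10 and 10.06 with gallic acid, a difference of 1.21 (SE 0.12, limma adjusted p = 0.214). Its 4 probes did not move alike, since with gallic acid the highest stepped up by 3.89 and the lowest by 0.09.

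A list of 10 tags carries a described or proposed function in the degradation of aromatic acids. Of these 8 were tested, and the tags of AGDC1 and of a candidate hydroxylase (ARAD1C08580g) were not analysed here. Across the 8, 1 rose and 0 fell in the common step, beside 7.64% and 6.76% of all tags. The one that rose was ARAD1D18458g, the tag of ACDO1, which opens the ring of catechol. Its level on the log2 scale was 6.21 and 6.56 in glucose and 6.14 and 6.75 with gallic acid, and it stood at 7.08 and 7.06 at 2 h and at 6.10 and 6.09 at 5 h. The arms were thus close at every time, and both 30 min levels were above both 15 min levels. The common step was 0.48 (SE 0.08, n = 2 pairs of arrays, limma adjusted p = 0.0223). Taken alone, the step with gallic acid passed (0.61, limma adjusted p = 0.024) and that in glucose did not (0.35, 0.090), and the difference of the steps was 0.27 (SE 0.11, limma adjusted p = 0.456). Of its 10 probes, 20% stood well above background on the gallic acid array of 15 min, against 80% or more on the other 3 arrays.

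The candidate hydroxylase ARAD1C00330g stepped with gallic acid. Its level was 5.90 and 5.98 in glucose, where 10% of its 10 probes were well above background at 15 min and 0% at 30 min, and 6.33 and 7.11 with gallic acid, where 70% and 100% were. The gallic acid step was 0.78 on the log2 scale (SE 0.08, limma adjusted p = 0.018), below the size of 1 that the rule asked for, and the difference of the steps was 0.70 (SE 0.11, limma adjusted p = 0.219). With gallic acid it stood at 6.69 at 2 h and 6.58 at 5 h, against 5.89 and 5.90 in glucose, so that it was higher with gallic acid at all 4 times. The annotated phenol hydroxylase ARAD1D18502g measured 8.16 and 8.67 in glucose and 8.67 and 8.38 with gallic acid. Its steps were 0.51 (limma adjusted p = 0.041) and -0.29 (0.082), with a difference of -0.80 (SE 0.10, limma adjusted p = 0.214). In the other 5 tags neither arm passed. ARAD1D18392g had the steps -0.42 and -0.19 in glucose and with gallic acid, and ARAD1C03498g 0.00 and -0.36. ARAD1D27984g, ARAD1A17402g and ARAD1C08558g stepped by between -0.14 and 0.03 in either arm, and at most 30% of the probes of the last 2 were well above background on any of the 4 arrays.

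The common step was spread over the genome. By the letter in the tag, 8.06% of the tags of chromosome A rose and 6.54% fell, and the shares were 8.90% and 6.70% for B, 6.73% and 7.24% for C, and 7.89% and 6.60% for D. They rose with the level of the tag, from 1.52% and 2.36% in the dimmest of 3 equal classes to 13.1% and 10.6% in the brightest, and the offset of 50 shrinks the steps of dim tags. The next tag along the chromosome moved in the same called direction for 94 of the 467 tags that rose (20.1%) and 73 of the 413 that fell (17.7%), and in the opposite one for 23 and 20. There were 25 runs of at least 3 adjacent called tags of 1 direction, 17 of which rose and 8 fell. The longest was a run of 7 tags on chromosome C that rose by 0.28 to 2.34, with a median of 1.51. ARAD1C36278g closed a run of 3 with a median step of 3.40. The array's probes of neighbouring tags could share sequence, which was not tested.

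The tags with the prefix ARAD1M, which match in number the 36 putative mitochondrial genes of the array's design, moved little, and the direction depended on the scaling of the arrays. In the common step 0 of the 35 tested rose and 0 fell (lowest limma adjusted p = 0.243). In glucose 31 of the 35 stepped above 0, with a median of 0.09 on the log2 scale, and with gallic acid 28 of the 35 stepped below 0, with a median of -0.11. The step was lower with gallic acid than in glucose in 33 of 35, with a median difference of -0.21, compared with 52.2% of all tags and a median difference of -0.01. No single tag passed for the difference (lowest limma adjusted p = 0.361). Every scaling to the yeast signal that was tried kept the signs of these medians. On the processed signal minus the 75th percentile of each array they were 0.23 and -0.20. On that scale the 10 spike-in transcripts moved by 0.16 to 0.53 in glucose and by -0.51 to 0.22 with gallic acid. Both gallic acid extremes came from dim spike-ins, with mean log2 signals of 1.77 and 3.01. Those with a mean log2 signal of 5.92 or more moved by 0.30 to 0.53 in glucose and by -0.25 to -0.10 with gallic acid. With no scaling between arrays the ARAD1M medians were -0.06 in glucose and 0.00 with gallic acid, 12 of 35 were above 0 in glucose and 16 of 35 below 0 with gallic acid, and the median difference turned to 0.09. On that unscaled signal the medians of all tags were -0.28 and 0.26. The shift of the ARAD1M tags was thus one relative to the other yeast tags and was not seen without that scaling.

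**Figure D5:**
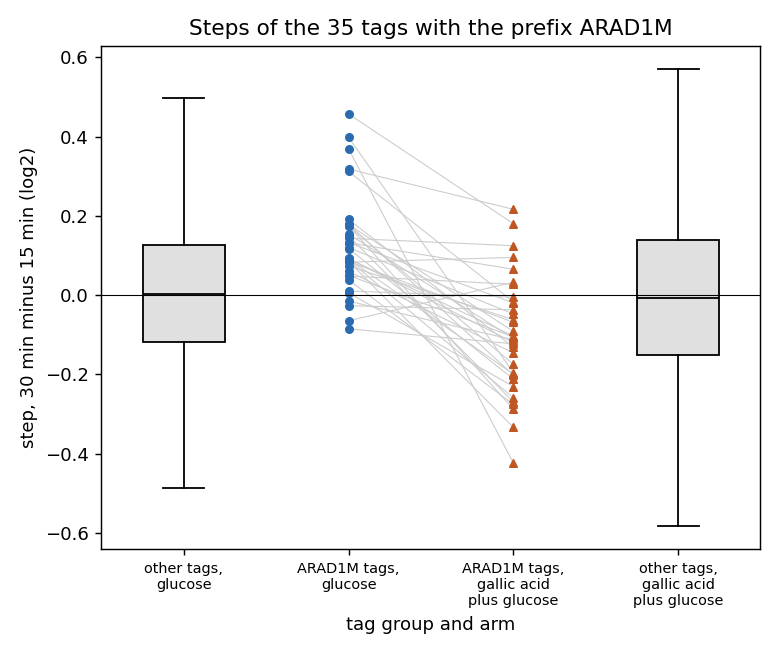
Steps from 15 min to 30 min on the log2 scale (y axis) of the 35 ARAD1M tags, joined by lines between glucose (circles) and gallic acid plus glucose (triangles), beside boxes for all other tags in each arm (x axis), with the median as a line, the box for the middle 50% and whiskers to 1.5 box lengths. Of the 35 tags 31 lie above 0 in glucose and 28 below 0 with gallic acid on these quantile-normalised values, and 12 and 16 do with no scaling between arrays.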

How the data were processed

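Total RNA was labelled with Cy3 and hybridised to 60-mer arrays by the authors. The deposited scanner files, from Agilent Feature Extraction 11.5.1.1, hold spot intensity values (median signal, median local background, processed signal) and 0 or 1 flags deposited as other values. Also deposited is the authors' table of log2 values, per the study's methods normexp-corrected and quantile-normalised in limma. Its column medians lie between 5.65 and 5.68, and it is not centred per gene. For this table, neither the offset nor the choice of signal is given in the sources used here. The arrays are those with gallic acid, as the labels say. The methods text describes the same procedure for arrays with protocatechuic acid.

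In R 4.3.3 with limma 3.58.1, the median signal was corrected with normexp (offset 50), which shrinks steps of dim tags, then quantile-normalised over the 8 arrays. Control spots, outlier spots (0 to 6 per array) and 1 probe without a tag were left out. The level of a tag is the median log2 intensity of its probes. A tag was tested when at least 1 probe was well above background on at least 2 arrays.

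The common step came from lmFit and eBayes with arm and harvest time as factors, and each arm's step and their difference from the same fit with an added term. The labels give both arms the same harvest times, so harvest time pairs the arrays. Arrays of the same time deviated together (r between 0.75 and 0.91 after the arm means, at most 0.00 for other pairs). Taking out the arm means pushes the other pairs down, and arrays of the same time share a slide column. Tags were named as the 2 largest in each direction of each comparison among tags with at least 4 probes, and for the difference as the lowest p in each direction, beside the tags with a function. Fold changes are 2 to the power of the log2 step. Alternatives covered background, scaling, probe summary, filter, prior, adjustment, arrays left out and the size rules. The comparison and its tag lists were chosen with earlier results of these data known. The procedure was tested on simulated data. Precision is limited by the number of arrays.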

Additional observations from a re-analysis of the deposited data

Results flagged for a closer look

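The following tags were picked out because the step went one way in glucose and the other way with gallic acid, with 1 array per arm and harvest time. The difference of the steps, gallic acid minus glucose on the log2 scale, was -1.25 for ARAD1A15950g and -1.42 for ARAD1C33990g, which were up in glucose. It was 1.36 for ARAD1B11440g and 2.15 for ARAD1B19558g, which were down in glucose. None of these differences passed limma's test, with adjusted p of 0.571, 0.214, 0.214 and 0.214 in that order.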

How the results depend on the processing

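The called tags that were tested kept the direction of the common step under each alternative except the brightest probe, where 828 of 880 kept it. The filters, prior, adjustment, block and the 2 h and 5 h arrays do not enter the size of the step, so its direction was fixed under those alternatives. Counts of rises and falls moved by over 1.5 times with Bonferroni adjustment (15 and 4), on the 4 arrays of 15 min and 30 min alone (0 and 0), without the 2 h arrays (252 and 205) and without the 5 h arrays (208 and 195). Leaving out 1 array of the 4 gave between 185 and 321 rises and between 164 and 341 falls. Without arm in the fit, so with no replicate block, 469 rose and 417 fell, and 768 of the calls were shared.

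For glucose, where 326 tags were called, the alternatives gave 500 at offset 0, 147 with the processed signal, 507 with a trended and robust prior, 3 with Bonferroni, and 0 without the 2 h or the 5 h arrays. With gallic acid, where 652 were called, they gave 6 with Bonferroni, 154 without the 2 h arrays and 0 without the 5 h arrays. The difference of the steps had 0 calls in limma under every alternative that could fit it, with lowest adjusted p between 0.0978 (offset 0) and 0.591 (Bonferroni), and between 586 and 822 tags at an unadjusted p below 0.05.

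The size counts moved under several settings. Glucose only held 14 tags, gallic acid only 29 and opposite 7. They became 58, 104 and 32 at offset 0, 99, 225 and 54 with the processed signal, 29, 58 and 16 in the authors' log2 table, 34, 54 and 24 with the brightest probe, and 2, 16 and 1 at a size of 1.5. The mean over probes gave 9 in glucose only, and median scaling gave 12 opposite. Of the 14, 29 and 7, the processed signal kept 11, 20 and 6, and the authors' log2 values kept 13, 27 and 7. Of the named tags 1 reversed its difference, ARAD1B19558g with the brightest probe (-0.853), as that probe alone stepped up in glucose. With no scaling between arrays, an alternative chosen after seeing the data, the median difference of the ARAD1M tags turned from -0.212 to 0.088. Leaving out probes whose name ends in _X, chosen likewise, gave 461 rises, 420 falls and 13, 31 and 7 by size.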
